A study of Homo sapiens with 4 samples.

Results

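The regions described here are distal H3K4me3 peaks whose centre lay in an element of the ERVL or MaLR families of endogenous retroviruses. They were the intron and intergenic peaks that the authors' annotation placed in an ERVL or ERVL-MaLR element, more than 2000 bases from the nearest transcription start site (TSS). The rule used position and annotation and no signal value, and it took 2828 of 110018 merged peaks, 1513 in MaLR elements and 1315 in ERVL elements. The series asked how a KDM5 inhibitor changes H3K4me3 in HCC1428, a cell line established from a luminal breast tumour. CUT&Tag, in which an antibody directs a transposase to a chromatin mark, was run on 2 libraries of cells given DMSO, the vehicle, and on 2 libraries of cells given 2.5 µM C48, a KDM5 inhibitor, whose columns the deposited tables tag GNE and the sample descriptions assign to the C48 libraries, all collected on day 5 and with no other agent or allele. The labels call the libraries biological replicates, and separate cultures are not stated, so the p-values cover the spread of these libraries alone, and that spread may be technical.

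Endogenous retroviruses are remnants of ancient germline infections. An intact copy has a coding interior between a pair of long terminal repeats (LTRs), and the LTRs carry promoter sequence; most copies today are solitary LTRs. ERVL elements lack an envelope gene. MaLRs are their non-autonomous relatives, of which the THE1 and MST groups spread in primates and the MLT1 group is older and found across mammals. MLT2 elements are LTRs of the ERVL family, and some of them serve as promoters in early embryos. H3K4me3 marks active promoters, and the KDM5 enzymes remove it.

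By name, the largest groups were 1121 MLT1 peaks and 811 peaks in ERVL elements named LTR, such as LTR16 and LTR33. There were 211 peaks in ERVL elements named MER, 158 MST, 138 THE1 and 123 MLT2 peaks. Interiors, whose names end in -int, held 159 ERVL and 96 MaLR peaks, and 11 peaks lay in 1 further ERVL name, ERV3-16A3_LTR. The merged list was built with libraries of other cell lines too, and 1045 of the 2828 peaks were called in at least 1 of these 4 libraries, while 1783 were called in none. Of the 1045, 470 had a mean of at least 5 tags per 10 M and were tested, 234 in MaLR and 236 in ERVL elements. Called peaks had a median length of 341 bases and lay a median of 61.5 kb from the nearest TSS, with 26.3% in introns. The other called distal peaks had medians of 434 bases and 46.2 kb.

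Depth, as aligned tags recovered from the deposited values, was 88.4 and 64.6 M with DMSO and 58.4 and 72.7 M with C48, with 64.0% to 66.3% of tags in merged peaks. Of 10 luminal marker genes, the 4 tested at an annotated promoter peak were FOXA1, KRT8, KRT18 and KRT19, and the luminal promoters summed to between 1115 and 2004 scaled tags. On the scale used here FOXA1 (-1.03), KRT8 (-0.90) and KRT18 (-0.79) were lower after C48, and KRT19 was not called. Of all 10017 tested promoters 56.6% were lower. ESR1 had a promoter peak with a mean below 5 and was not tested. No promoter peak was annotated for any of the 5 blood or 5 stromal markers, among them PTPRC and COL1A1, and the 3 basal markers summed to at most 0.927. The remaining luminal genes with no peak at their promoter numbered 5, GATA3 among them, so some genes of this cell type also lacked an annotated peak. Values are tags per 10 M multiplied by a TMM factor, which takes most tested peaks as unchanged. On this scale the median of all 34154 tested peaks was 0.09 on the log2 scale. Other scalings moved every log2 difference by 0.30 (as deposited), 0.37 (column total), 0.72 (promoters of ribosomal protein genes) or -0.07 (DESeq2 factors). On the TMM scale 73.1% of tested peaks were called, so the assumption of mostly unchanged peaks was not met by these calls. The paper reports fewer reads from added fly nuclei with C48, and states that without scaling on them C48 peaks are undercounted. A lower value here therefore means lower on the scale used, without that correction.

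The printed sequences show what such a peak contains: the peaks with the largest rise in 4 of the 8 groups of elements, and the 2 with the largest fall. Each is 200 bases of the plus strand of hg38, centred on the peak, with CpG sites in capitals. The window follows the peak and not the element, whose borders the files do not give, so it may run past the element. The leaders of the other groups are named only.
LTR16 near CSF3R (chr1:36729071-36729270): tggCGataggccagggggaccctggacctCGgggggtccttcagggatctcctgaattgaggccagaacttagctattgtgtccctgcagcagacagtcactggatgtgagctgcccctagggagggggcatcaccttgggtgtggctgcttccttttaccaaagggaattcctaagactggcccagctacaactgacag
MLT1J2 near RNF103 (chr2:86630331-86630530): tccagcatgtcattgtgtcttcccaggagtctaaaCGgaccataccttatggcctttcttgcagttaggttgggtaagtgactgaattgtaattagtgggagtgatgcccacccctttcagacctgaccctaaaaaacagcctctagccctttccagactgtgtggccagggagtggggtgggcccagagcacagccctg
MER70B near AGR3 (chr7:16915916-16916115): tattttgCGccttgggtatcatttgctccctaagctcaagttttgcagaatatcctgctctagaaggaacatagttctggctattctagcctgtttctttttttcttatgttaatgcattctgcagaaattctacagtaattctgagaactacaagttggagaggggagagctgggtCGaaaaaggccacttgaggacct
HERVL18-int near KCNJ2 (chr17:70669608-70669807): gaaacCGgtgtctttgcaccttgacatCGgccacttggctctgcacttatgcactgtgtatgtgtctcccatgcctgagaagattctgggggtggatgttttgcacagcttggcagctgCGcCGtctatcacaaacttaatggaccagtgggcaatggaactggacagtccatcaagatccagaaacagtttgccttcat
ERVL-E-int near SNORA117 (chr20:62875652-62875851): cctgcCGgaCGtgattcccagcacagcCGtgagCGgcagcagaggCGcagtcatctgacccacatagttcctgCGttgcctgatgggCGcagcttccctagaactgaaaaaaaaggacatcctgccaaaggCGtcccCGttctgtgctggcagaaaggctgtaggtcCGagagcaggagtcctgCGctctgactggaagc
LTR33 near WAPL (chr10:86557142-86557341): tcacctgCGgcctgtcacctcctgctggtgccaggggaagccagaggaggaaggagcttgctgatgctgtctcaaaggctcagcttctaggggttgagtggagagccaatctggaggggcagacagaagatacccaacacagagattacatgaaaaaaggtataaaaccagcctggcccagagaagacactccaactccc

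The 4 windows of peaks that rose held 1 to 4 CpG sites, and their GC content was 41.5% to 57.5%. The MLT1J2 window, at a peak that rose 6.27-fold, held 1 CpG. The ERVL-E-int window, from a peak that fell, held 11 CpG sites and 59.5% GC, and the LTR33 window near WAPL, also from a peak that fell, held 1. None of the 9 motifs searched for, described with the sequence results, was found in these 6 windows.

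The comparison of C48 with DMSO was made first on single peaks. The largest rise among peaks with a mean of at least 10 was at an LTR16 peak at chr1:36728650-36729690, an intergenic position 246 kb upstream of the TSS of CSF3R, the receptor for granulocyte colony-stimulating factor. It held 3.15 and 3.08 scaled tags with DMSO and 34.1 and 39.9 with C48. The means differed 11.9-fold (log2 difference 3.20 ± 0.24 SE, n = 2 libraries per group, limma, adjusted p = 9.4e-17). The groups did not overlap, which was a condition for naming the rises. The LTR16 peak was called in 2 of the 4 libraries. A peak needed a call to be tested, and more peaks were called with C48, so the p-values of named rises share that selection. The counts behind the DMSO values were 25 and 18 tags. Nearest genes are given only as position, since the peaks lie far from them.

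Both MLT2 peaks among the 8 largest rises were intergenic. MLT2A2 at chr6:96724074-96724489, 113 kb downstream of the TSS of GPR63, a G protein-coupled receptor, went from 3.66 and 2.22 to 21.9 and 26.1 (log2 difference 2.69 ± 0.27, adjusted p = 2.5e-12). MLT2C1 at chr17:79769538-79770152, 8.30 kb upstream of CBX2, a Polycomb subunit, went from 35.8 and 38.5 to 213 and 201 (2.45 ± 0.10, adjusted p = 5.2e-27). The CBX2 peak was called in all 4 libraries, and the GPR63 peak in the C48 libraries alone. At both, each C48 library was above each DMSO library, as the naming rule required.

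Of the MLT1 peaks among the 8 largest rises, the one with the highest signal after C48 lay in intron 2 of the readthrough gene RNF103-CHMP3, 6.55 kb upstream of RNF103, a ubiquitin ligase. This MLT1J2 peak, at chr2:86630201-86630659, had 22.5 and 28.4 scaled tags with DMSO and 148 and 170 with C48 (2.61 ± 0.12, adjusted p = 5.7e-25). It was called in neither DMSO library and in both C48 libraries. MLT1I at chr10:8969930-8970484, 72.2 kb from the long noncoding RNA gene LINC02676, went from 19.7 and 21.4 to 106 and 112 (2.36 ± 0.13, adjusted p = 6.2e-22), and MLT1F1 at chr2:215293857-215294993, 17.6 kb upstream of ATIC, a purine synthesis enzyme, from 5.30 and 5.81 to 32.5 and 32.9 (2.36 ± 0.22, adjusted p = 1.8e-13). The ATIC peak was called in 2 libraries and the LINC02676 peak in all 4. These 3 MLT1 peaks belong to the older MaLR group and rose between 5.33- and 6.27-fold.

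An LTR52 peak at chr20:54920448-54920897, 445 kb downstream of the TSS of DOK5, a docking protein of receptor kinases, went from 8.20 and 16.4 to 66.1 and 63.2 (2.37 ± 0.19, adjusted p = 5.8e-16). Its DMSO libraries were apart from each other, and both were far below the C48 libraries. A MER70B peak at chr7:16915435-16916595, 34.0 kb upstream of AGR3, a member of the protein disulphide isomerase family, went from 3.28 and 4.1 to 20.6 and 20.8 (2.22 ± 0.27, adjusted p = 2.8e-10). The MER70B peak was called in 2 libraries, and the LTR52 peak in all 4. Leaders of the remaining groups rose less. THE1D near LINC02055 went from 6.18 and 6.49 to 26.8 and 27.8 (1.95 ± 0.23). HERVL18-int near KCNJ2, a potassium channel gene, went from 9.84 and 11.6 to 34.2 and 30.7 (1.51 ± 0.20). MLT1I-int near ADCY8, an adenylate cyclase gene, went from 5.93 and 8.03 to 19.4 and 23.5 (1.5 ± 0.24), and MSTB near CBLN4, the gene of a secreted synaptic protein, from 62.2 and 56.9 to 162 and 153 (1.39 ± 0.09). In all 4 the libraries of the groups were apart, as the naming rule required, and the adjusted p (limma) was at most 2.6e-07.

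**Figure D1:**
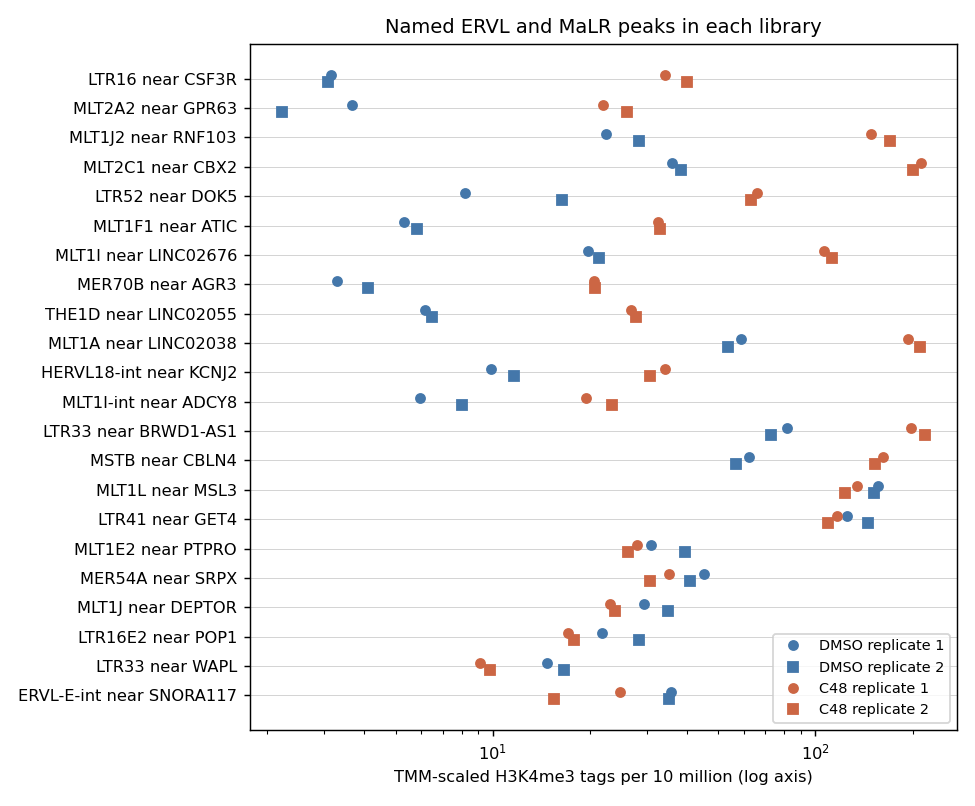
Scaled H3K4me3 tags per 10 M (log axis) at the 22 named ERVL and MaLR peaks, with 1 point per library (DMSO blue, C48 orange, circles replicate 1, squares replicate 2), ordered by log2 difference. At the upper 14 peaks both C48 libraries lie above both DMSO libraries, and at the lower 8, whose direction depends in part on the scaling, below them. Apart from peaks named for their mean alone, this was a condition of naming.

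The 4 peaks with the highest mean, per peak and not per base, were divided. LTR33 at chr21:39320046-39320545, in intron 2 of BRWD1-AS1, a long noncoding RNA gene, rose from 81.7 and 72.8 to 198 and 219 (1.42 ± 0.09, adjusted p = 2.5e-20). MLT1A at chr3:193836637-193837537, 6.92 kb from LINC02038, rose from 58.7 and 53.7 to 194 and 211 (1.83 ± 0.09, adjusted p = 1.7e-23). The other two were slightly lower after C48. MLT1L at chrX:11754934-11755242, 3.07 kb upstream of MSL3, a subunit of a histone acetyltransferase complex, had 156 and 152 with DMSO and 135 and 123 with C48 (-0.25 ± 0.08, adjusted p = 0.0047). LTR41 at chr7:867142-868455, in intron 20 of SUN1, which codes for a nuclear envelope protein, and nearest to the TSS of GET4, had 126 and 145 with DMSO and 116 and 109 with C48 (-0.26 ± 0.09, adjusted p = 0.0072). The differences at MSL3 and SUN1 changed sign with the values as deposited, to 0.04 and 0.04, and were called higher when libraries were scaled on ribosomal protein promoters, at 0.46 and 0.45. Without C48 replicate 2 neither was called (adjusted p = 0.096 and 0.074), and without DMSO replicate 2 the SUN1 peak was not (adjusted p = 0.18).

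Among peaks with a mean of at least 10 and no overlap between groups, 167 were called higher and 8 lower. Shares over all tested peaks under these conditions were not counted, so these numbers only describe where named peaks came from. Without these conditions, 37.9% of all tested peaks were called higher and 35.2% lower. The largest fall was an ERVL-E-int peak at chr20:62875442-62876061, 7.15 kb from the small nucleolar RNA gene SNORA117, with 35.7 and 35.2 with DMSO and 24.8 and 15.5 with C48 (-0.82 ± 0.18, adjusted p = 7.7e-05). LTR33 at chr10:86556800-86557682, 35.4 kb upstream of WAPL, a cohesin release factor, had 14.8 and 16.6 with DMSO and 9.10 and 9.82 with C48 (-0.67 ± 0.24, adjusted p = 0.0099). These were the 2 falls that stayed below 0 under every scaling, although ribosomal scaling left -0.13 and -0.011, and the LTR33 call was lost without DMSO replicate 2 (adjusted p = 0.054) or C48 replicate 1 (adjusted p = 0.073). The other 4 were LTR16E2 near POP1, MLT1J in intron 4 of DEPTOR, MER54A near SRPX and MLT1E2 in intron 1 of PTPRO, with log2 differences from -0.49 to -0.35 that turned positive under ribosomal scaling. The calls at LTR16E2, MLT1J and MLT1E2 were lost without DMSO replicate 2, without C48 replicate 1 and without C48 replicate 2, and that at MER54A without DMSO replicate 1 or C48 replicate 2 (adjusted p from 0.054 to 0.39).

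Across the tested peaks, 313 of 470 were higher after C48, 20 were lower and 137 were not called (limma, Benjamini-Hochberg adjustment at 0.05). Of all 34154 tested peaks, 73.1% were called, 37.9% higher and 35.2% lower, and of the 15036 other tested distal peaks 51.4% were higher and 10.8% lower. The median log2 difference was 0.85 (quartiles 0.34 and 1.26) over ERVL and MaLR peaks, beside 0.50 over the other distal peaks. In the same fit, the 253 ERVL and MaLR peaks called in all 4 libraries had a smaller median of 0.62, with 152 higher and 11 lower. The median of other distal peaks called in all 4 libraries was not computed. MaLR and ERVL peaks gave near counts, 159 higher and 6 lower of 234 and 154 higher and 14 lower of 236, with medians of 0.87 and 0.85. Both C48 libraries were above both DMSO libraries at 359 of the 470 peaks and below them at 28, where all tested peaks gave 45.8% and 39.8%. A tested peak had to be called in at least 1 library, and more peaks were called in the C48 libraries, so this count is not taken as evidence on its own. Sums over all 2828 peaks follow, but most of their tags lie in called peaks, so they share this limit. The fall count was smaller with any 1 library left out, but only slightly so without DMSO replicate 1. It was 5, 4 and 2 under the deposited, column total and ribosomal scalings, under which the rises numbered 371, 379 and 426.

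By group, 17 of 20 tested MLT2 peaks rose and the other 3 were not called, with a median log2 difference of 1.12. Of the primate MaLR groups, 19 of 25 MST peaks rose (median 1.00) and 18 of 25 THE1 peaks (median 0.84), and the rest were not called. MLT1 peaks were 117 higher and 5 lower of 172 (median 0.86). ERVL peaks named LTR were 94 higher and 10 lower of 155 (median 0.76), and those named MER were 25 higher and 3 lower of 36 (median 0.85). Interiors gave 16 higher and 1 lower of 23 for ERVL (median 0.85) and 5 higher and 1 lower of 12 for MaLR (median 0.52). Differences between these groups were not tested.

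The sums over every merged peak, called or not, were higher with C48 in each group of LTRs and interiors under all 5 scalings used. All 2828 peaks together held 8392 and 8694 scaled tags with DMSO and 14824 and 14226 with C48, a ratio of 1.70, with 1.62 under DESeq2 factors and 2.79 under ribosomal scaling as the lowest and highest. Of these tags the 1045 called peaks held 7187 and 7463 with DMSO and 13420 and 12865 with C48. The sums therefore also carry the selection through calls. MLT2 peaks summed to 278 and 283 with DMSO and 736 and 677 with C48, a ratio of 2.52. The MLT2C1 peak near CBX2 alone held 35.8 and 38.5 of these tags with DMSO and 213 and 201 with C48. The MLT2 ratio without this peak was not computed, so its rank above MST may rest on that locus. MST peaks gave a ratio of 2.27, THE1 of 1.92, MLT1 of 1.70, internal ERVL of 1.64, MER-named of 1.61, LTR-named of 1.58 and internal MaLR of 1.39. In every group both C48 libraries were above both DMSO libraries. Where a peak was called mattered: the 256 peaks called in all 4 libraries gave a ratio of 1.65, and the 1783 called in none gave 1.14, from 1205 and 1230 to 1404 and 1361. Among those called in none, MST peaks had a ratio of 2.39, MLT2 of 1.45 and MLT1 of 0.979, internal MaLR peaks of 0.725 and the 4 peaks of ERV3-16A3_LTR of 0.517. The MLT1 ratio was above 1 under the deposited (1.21), column total (1.27) and ribosomal (1.61) scalings, and that of internal MaLR under ribosomal scaling (1.19). Peaks called in none gave 1.24 over all other distal repeats. By class they gave 1.39 for Alu, 1.23 for L2 and MIR, 1.18 for ERV1 and ERVK, 1.18 for DNA transposons and 1.08 for L1. So ERVL and MaLR peaks called in none rose less than these repeat classes except L1. Distal peaks outside repeats called in none gave 0.693.

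**Figure D2:**
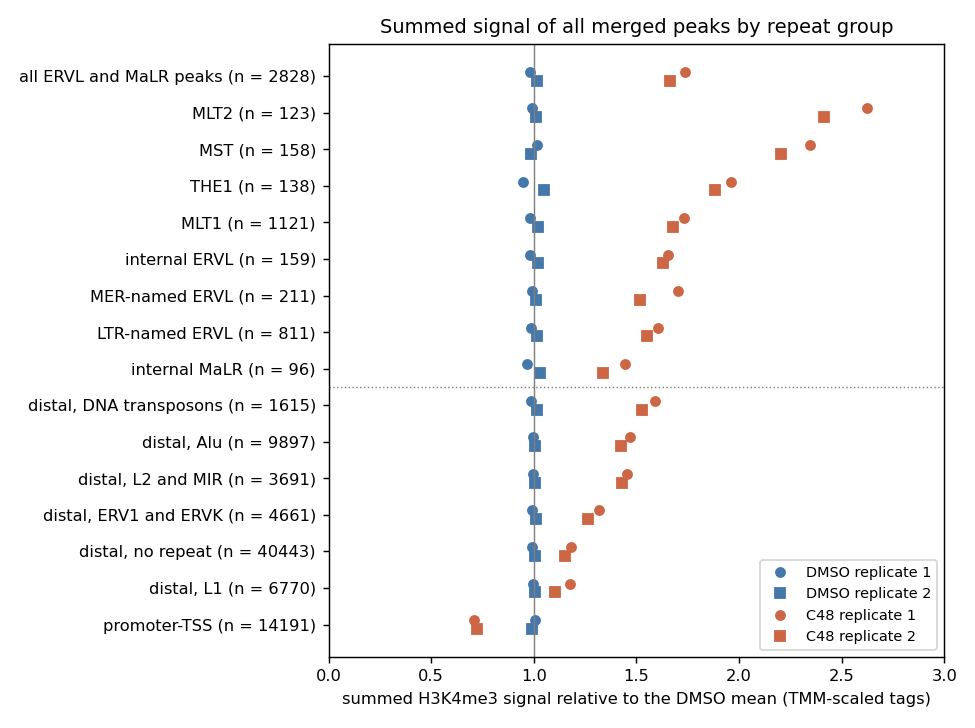
Summed scaled tags of all merged peaks of each group, relative to the mean of the 2 DMSO libraries, with 1 point per library. The dotted line parts ERVL and MaLR groups from other distal peaks and promoters. MLT2, with the MLT2C1 peak near CBX2 included, stands at 2.52 and MST at 2.27. Other distal repeat classes lie between 1.14 (L1) and 1.56 (DNA transposons). Promoters lie at 0.715, a value that ribosomal scaling turns to 1.17.

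Shares of tags do not depend on the scaling. All 2828 peaks held 0.114% and 0.12% of the tags in merged peaks with DMSO and 0.258% and 0.245% with C48, a ratio of 2.15. The shares that follow are over the 1045 called peaks, a set that more peaks entered through the C48 libraries. Called ERVL and MaLR peaks held 0.108% and 0.114% of the tags in called peaks with DMSO and 0.263% and 0.25% with C48, a ratio of 2.31. Of the tags in distal peaks they held 1.23% and 1.27% with DMSO and 1.99% and 1.95% with C48, a ratio of 1.58. Set against the tags in other distal repeats, they stood at 4.51% and 4.63% with DMSO and 6.45% and 6.48% with C48, a ratio of 1.41. The groups were apart on each denominator, and the two-sided exact permutation test over the 4 libraries gave p = 0.33, the smallest that 2 against 2 libraries allow, so no share can pass 0.05. MLT2 had the largest ratio among the groups on the distal tags, 2.39, from 0.0392% and 0.0412% to 0.0980% and 0.0943%. Part of that rise lay in the MLT2C1 peak near CBX2, and the ratio without it was not computed. Of the comparison classes, DNA transposons came closest with a ratio of 1.42 on that denominator, L2 and MIR gave 1.31, Alu 1.28, ERV1 and ERVK 1.14, and the libraries of the groups overlapped for L1, at 11.5% and 11.5% with DMSO and 11.8% and 11.3% with C48. The ratio of tags in ERVL and MaLR peaks to tags in DNA transposon peaks was 1.84 and 1.87 with DMSO and 2.05 and 2.06 with C48, 1.11 times higher.

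Peak calls were compared next. In the DMSO libraries 396 and 407 of the 2828 peaks were called, and in the C48 libraries 758 and 791, which is 1.31% and 1.37% against 2.02% and 2.09% of all peaks called there. Of the 1045 peaks called in any library, 22.0% were called in both C48 libraries and in neither DMSO library, beside 12.1% of all called peaks. The opposite pattern covered 1.53%, beside 2.61%. Peaks called in all 4 libraries made up 24.5% of the 1045 and 53.5% of all called peaks. All called peaks include promoters, of which 6284 of 8193 were called in all 4. In other distal repeats 4439 of 10712 called peaks were called in all 4, and the remaining patterns were not counted there.

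The median difference changed little with signal level among tested ERVL and MaLR peaks. The levels are means over all 4 libraries, C48 included, of peaks that had to be called. The scale of log2(value + 1) also understates changes of weak peaks. With 5 added in place of 1, the median over the 470 peaks was 0.60, and the levels were not recomputed. The median log2 difference was 0.89 for peaks with a mean under 10 scaled tags, 0.85 from 10 to 20, 0.84 from 20 to 50 and 0.79 for the 34 peaks at 50 and over. Other distal repeats went from 0.65 to 0.55, 0.37 and 0.11 over the same levels. Distal peaks outside repeats went from 0.70 to 0.70, 0.65 and 0.29. At the highest level 26 of 34 ERVL and MaLR peaks rose and 2 were lower, against 318 higher and 178 lower of 758 other distal repeat peaks. Across peaks, the correlation of the log2 difference with the log2 mean was -0.01 over 470 ERVL and MaLR peaks and -0.24 over the 15036 other distal peaks; peaks share libraries and are not independent replicates. The difference between these patterns was not tested.

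**Figure D3:**
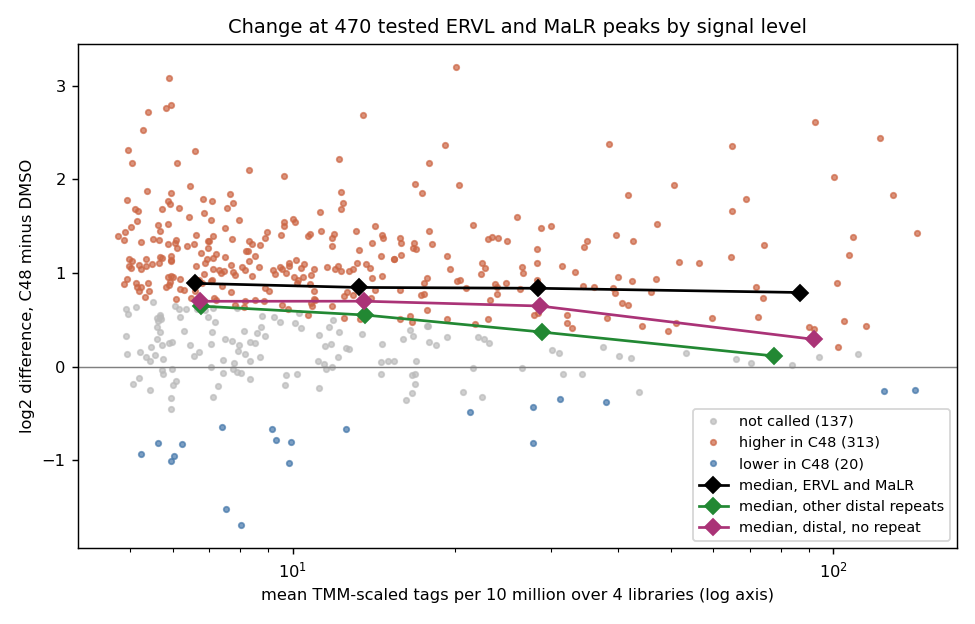
Log2 difference (C48 minus DMSO) against the mean of scaled tags over 4 libraries (log axis) for the 470 tested ERVL and MaLR peaks, coloured by call, with lines through the medians of 4 signal levels. The ERVL and MaLR medians run from 0.89 to 0.79, while the medians of other distal repeats run from 0.65 to 0.11.

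The difference varied with position, which was not tested. Of the 241 tested peaks more than 50 kb from a TSS, 180 rose and 1 was lower, with a median of 0.96. Of the 52 peaks between 2 and 10 kb, 27 rose and 7 were lower, with a median of 0.61, and the 177 between gave 106 and 12, with a median of 0.73. Intergenic peaks were 234 higher and 10 lower of 346, and intron peaks 79 higher and 10 lower of 124. Other distal peaks were not split by distance or by intron, so these patterns cannot be called particular to ERVL and MaLR peaks. Over all positions 51.4% of the other tested distal peaks were higher and 10.8% lower. Another called peak lay within 5 kb of 189 of the 470 peaks, and these had a median of 1.07 where the more isolated ones had 0.68. Of those neighbours, 137 were tested, 97 rose and 9 were lower, with a median of 0.91. Other tested distal peaks showed the same order: 35.9% had a called peak within 5 kb, with a median of 0.72 against 0.40 for the rest, and 2513 of their 4084 tested neighbours were higher. At the limit of 2000 bases, the nearest peaks inside were in MER21B, MER74B and MLT1H elements at 2001, 2045 and 2109 bases, each under 0.8 scaled tags in every library. Just outside, THE1B at 1922 bases had 1.52 and 0.685 with DMSO and 2.92 and 4.97 with C48. MLT1F at 1909 bases had at most 1.03, and LTR40a at 1880 bases from TRIM24 had 65.4 and 69.4 with DMSO and 124 and 123 with C48.

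Several rising peaks were neighbours, a pattern picked out after the values were seen. A stretch of 1.14 megabases at chr20:54920448-56059828, from the LTR52 peak near DOK5 to an LTR40a peak near CBLN4, held 12 tested ERVL and MaLR peaks, and 12 of 12 rose, with log2 differences from 0.84 to 2.37. They came from 11 element names of both families, among them LTR18B (25.7 and 22.2 with DMSO, 73.8 and 67.2 with C48) and MLT2F (16.5 and 22.6 with DMSO, 50.1 and 51.1 with C48). The other 38 tested peaks of the stretch were 35 higher with a median of 0.98, so the rise there was shared with peaks outside these elements. Near KCNJ2, on chromosome 17, an LTR18B peak and a pair of HERVL18-int peaks lay side by side from chr17:70668798 to 70669995, the arrangement of an LTR next to its own interior. The interior peaks rose by 1.51 and 1.01 on the log2 scale, and the LTR18B peak, at 7.69 and 3.25 with DMSO and 7.39 and 9.19 with C48, was not called (0.61, adjusted p = 0.086). Copy number was not analysed here.

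Summed by element name, called distal peaks gave 130 ERVL and MaLR names, of which 105 were higher and 1 lower (limma). Over all 725 repeat names 73.4% were higher and 4.97% lower, so the share is near that of repeat names at large. The median log2 difference was 0.85 for ERVL and MaLR names and 0.68 for all names. Among the 37 names with at least 5 tested peaks, 35 were higher. The 10 with the smallest p are described here. MLT1A0 summed to 59.9 and 67.7 with DMSO and 195 and 188 with C48 (1.57 ± 0.09 SE), and MLT1A to 99.6 and 96.2 with DMSO and 285 and 295 with C48 (1.56 ± 0.08). A single peak, that near LINC02038, held 66.6% of the MLT1A sum, and the MSTB peak near CBLN4 held 61.3% of the MSTB sum, so these names stand largely on 1 locus. MSTA, with 39 called peaks, was more even: its largest peak held 11.1%, and it went from 130 and 123 to 297 and 275 (1.17 ± 0.07).

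The other names were MLT1F2 (1.35 ± 0.07), MSTB (1.31 ± 0.08), MLT1I (1.29 ± 0.07), LTR16 (1.25 ± 0.08), LTR18B (1.25 ± 0.07), HERVL18-int (1.06 ± 0.07) and MLT1J2 (1.00 ± 0.06), each with both C48 libraries above both DMSO libraries and an adjusted p of at most 1.1e-18. Copies of 1 name did not all move alike. Of 13 tested MLT1J2 peaks 7 rose, with log2 differences from -0.33 to 2.61, and of 9 LTR18B peaks 8 rose, from 0.51 to 1.54. Of the 33 MLT1K peaks, the most of any name, 25 rose and 8 were not called. LTR41 peaks split, with 5 of 13 higher and 3 lower. The name called lower was LTR41C, with 47.2 and 46.6 with DMSO and 37.9 and 35.4 with C48 (-0.35 ± 0.14, adjusted p = 0.024). That call was lost without DMSO replicate 1, without either C48 library, and under the deposited, column total and ribosomal scalings.

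The repeat table counts all reads of a subfamily across the genome, inside and outside peaks, and it gave another picture. Of 203 tested ERVL and MaLR subfamilies 61 were higher and 70 lower (edgeR quasi-likelihood test), where 31.6% of all 4364 tested subfamilies were higher and 33.4% lower, and the median log2 difference was -0.04. Most tested subfamilies were simple repeats: of the 1224 others, 52.5% were higher and 19.1% lower, with a median of 0.22, so the ERVL and MaLR subfamilies had a smaller share higher and a larger share lower than these. Without the TMM factor the split was 44 higher and 85 lower. MaLR subfamilies were 16 higher and 38 lower of 83, and ERVL subfamilies 45 higher and 32 lower of 120. The share of repeat-table counts in MaLR subfamilies was 2.51% and 2.64% with DMSO and 2.36% and 2.22% with C48, and that in ERVL subfamilies 1.66% and 1.74% against 1.70% and 1.62%. Reads of subfamilies whose copies are nearly alike were divided among them, which makes each single value uncertain.

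Interiors and LTRs were counted apart in the repeat table, and the difference between them was not tested. Of 61 internal subfamilies 4 were higher and 39 lower, with a median of -0.59, and of 142 LTR subfamilies 57 were higher and 31 lower, with a median of 0.08. MSTA-int went from 7466 and 5864 counts to 2830 and 2946 (-1.11, adjusted p = 5.1e-11), THE1B-int from 10990 and 8546 to 4733 and 5054 (-0.90, adjusted p = 9.6e-11) and HERVL-int from 7019 and 5501 to 2878 and 3073 (-0.97, adjusted p = 8.4e-11), in libraries of 14.8 and 11.3 M counts with DMSO and 11.7 and 14.0 M with C48. In the peak table, HERVL-int and THE1B-int each stood on 1 called peak, and both of those peaks were higher, HERVL-int from 10.1 and 8.03 to 21.4 and 13.4 scaled tags and THE1B-int from 2.65 and 2.90 to 12.6 and 12.4. HERVL18-int and its LTR, LTR18B, were higher in both tables, by 0.56 and 0.64 on the log2 scale in the repeat table. Of the 105 names that rose in the peak sums, 49 were higher, 24 lower and 32 not called there; MSTA, MSTB and THE1B were among those lower, by -0.18, -0.21 and -0.41. MLT2A2, whose peak near GPR63 rose 8.17-fold, was not called over its whole subfamily, with 4168 and 3322 counts against 3142 and 3495 (-0.08, adjusted p = 0.15).

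**Figure D4:**
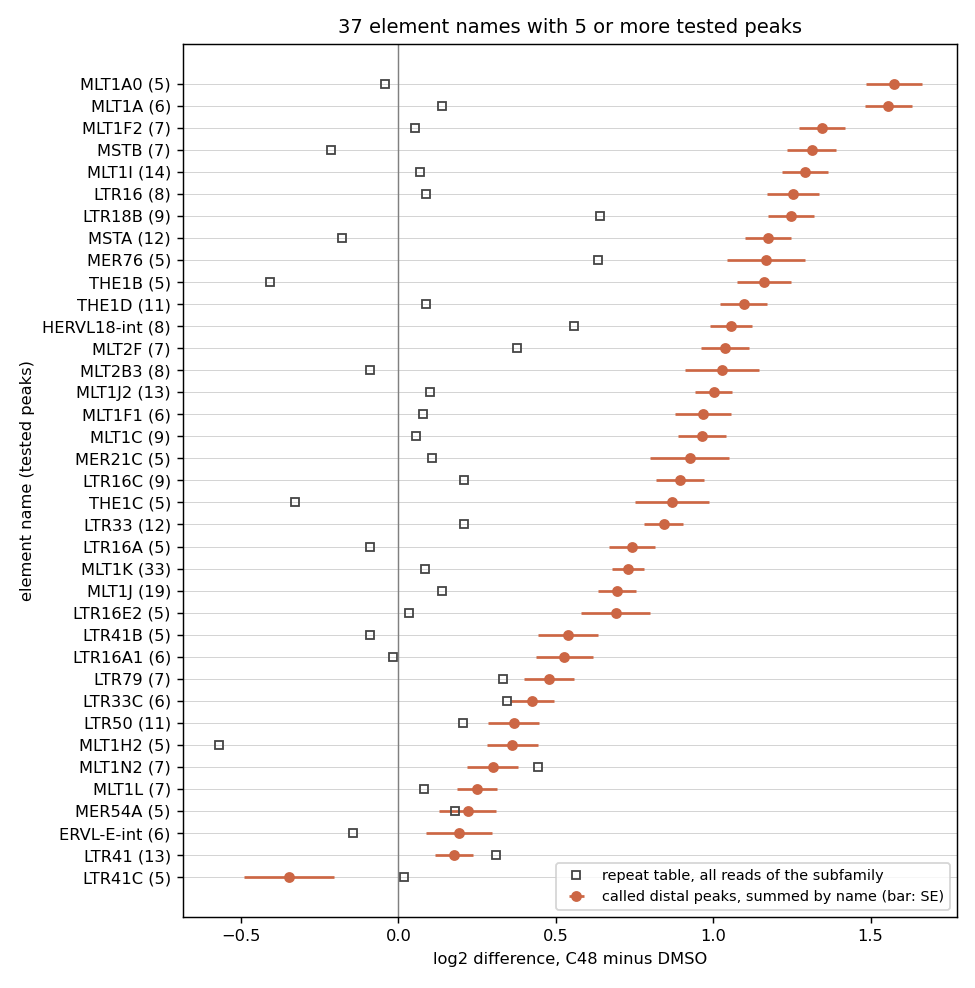
Log2 difference (C48 minus DMSO) of the 37 ERVL and MaLR names with at least 5 tested peaks, as sums over called distal peaks (orange, with SE) and over all reads of the subfamily in the repeat table (open squares). 35 of the 37 peak sums were called higher, while the repeat table gave 19 higher and 7 lower for the same names.

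The windows of 300 bases centred on the tested peaks were poorer in CpG than those of other peaks. The median was 5 CpG sites and 49.7% GC for ERVL and MaLR peaks, 10 and 55.0% for other distal peaks, and 17 and 61.3% for all tested peaks. Peaks that rose and peaks that were lower both had a median of 5 CpG sites. At 5 to 9 CpG sites the median log2 difference was 0.92 for 178 ERVL and MaLR peaks and 0.70 for 4623 other distal peaks, and at 10 or more it was 0.58 for 72 and 0.32 for 7541. With 2 to 4 sites the medians were 0.84 and 0.73. The medians of ERVL and MaLR peaks were above those of other distal peaks at each of the CpG levels, and the difference was not tested.

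Motifs were counted in the same windows on either strand, and a match describes the letters alone. The AP-1 motif TGACTCA stood in 32 windows (6.81%), beside 3.98% of all tested windows and 5.82% of other distal windows. The interferon response element stood in 37 (7.87%), beside 3.43% and 4.93%. Split by CpG sites, its shares in ERVL and MaLR windows and in other distal windows lay near each other below 10 sites. They were 6.98% and 7.5% at 0 or 1 site, 9.04% and 8.68% at 2 to 4, and 7.30% and 6.66% at 5 to 9. At 10 or more sites they were 6.94% and 2.53%. For AP-1, in the same order, the shares were 4.65% and 7.71%, 7.91% and 7.03%, 6.18% and 6.21%, and 6.94% and 5.09%. These differences were not tested. The forkhead motif TGTTTAC stood in 25 (5.32%), above all tested windows (4.27%) but below other distal windows (7.26%). The GATA motif AGATAAG stood in 12 (2.55%), beside 1.55% and 2.17%. The GC box GGGCGG, common in promoters, stood in 45 (9.57%), beside 44.9% and 26.0%. The ETS motif CCGGAAG stood in 19 (4.04%), below all tested windows (6.45%) and near other distal windows (3.80%). The cyclic AMP response element TGACGTCA and the oestrogen response element were each found in 1 window. The motif of DUX4, a factor that binds MLT2 elements in early embryos, was in none of the 470 windows and in 24 of all tested windows, which says only that these letters were absent there. The median log2 difference of peaks with and without a motif was 0.42 and 0.88 for the GC box, 0.43 and 0.88 for the forkhead motif, 0.50 and 0.87 for the ETS motif and 0.56 and 0.87 for the interferon response element. It was 0.80 and 0.85 for AP-1 and 1.13 and 0.85 for GATA, and these differences were not tested.

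Genes tied to the silencing or activation of these elements were read at their promoters. TRIM28 and SETDB1 repress endogenous retroviruses through H3K9 methylation, and KDM1A (also called LSD1) and the SUV39H and EHMT enzymes act on histone H3 in silent chromatin. Of 23 such genes 12 had a tested promoter, of which 10 were lower and 1 higher (limma), where 56.6% of the 10017 tested promoters were lower and 19.9% higher. Under ribosomal scaling the list gave 7 higher and 2 lower, so its direction follows the scaling. SUV39H2, a histone H3K9 methyltransferase, had 2055 and 2088 scaled tags with DMSO and 1023 and 1106 with C48 (-0.96, adjusted p = 7.9e-19). KDM1A had 660 and 620 with DMSO and 393 and 381 with C48 (-0.72), and TRIM28 580 and 538 against 320 and 335 (-0.77). ATRX, a chromatin remodeller and the only gene of the list called higher, had 9.21 and 9.23 with DMSO and 21.0 and 23.4 with C48 (1.18, adjusted p = 8.1e-06).

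Of 15 genes of the cleavage-stage embryo, whose programme includes MLT2-driven transcripts, 13 had no annotated promoter peak, DUX4, LEUTX and ZSCAN4 among them. CCNA1, a cyclin gene, had 333 and 320 with DMSO and 275 and 265 with C48 (-0.28, adjusted p = 0.00012), a call that was lost with the values as deposited and turned higher under ribosomal scaling. SLC34A2, a phosphate transporter gene, had 6.31 and 3.42 against 6.01 and 8.20 and was not called. Of the 62 genes of the study's interferon signature, 5 of the 2828 peaks had one as the nearest gene, and 1 of these peaks was tested. That MLT1G3 peak, at chr20:50451115-50451656, 58.9 kb upstream of PTPN1, a tyrosine phosphatase gene, rose from 3.66 and 2.40 to 9.55 and 8.70 (1.35, limma, adjusted p = 0.00033). Of all 34154 tested peaks, 93 had a signature gene as the nearest gene, and 43 of these were higher. With 1 of 470 tested ERVL and MaLR peaks, no difference from that background can be read.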

How the data were processed

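H3K4me3 CUT&Tag was measured in 4 libraries, 2 per group, with groups and replicate numbers taken from the sample titles. The authors aligned reads to hg38 and to the fly genome with Bowtie2 2.3.4.1, per the submitters' processing notes, called peaks per library with HOMER and merged them with other cell lines' peaks. The deposited peak table holds a signal, HOMER tags per peak per 10 M aligned tags, without spike-in scaling; spike-in counts were not used here. For repeats, the authors deposited RepEnrich2 output as estimated counts for each subfamily, rounded to whole numbers, in which a read that fits more than 1 subfamily is divided.

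Peaks called in at least 1 library with a mean of at least 5 were tested with limma 3.58.1 (R 4.3.3) on log2(value + 1), which understates changes of weak peaks, after TMM scaling with edgeR 4.0.16. Signal values came out as whole tags for 100% of values within 0.1 tag. The edgeR quasi-likelihood and DESeq2 1.42.0 tests on these tags were alternatives, beside other scalings, filters, pseudocounts and left-out libraries. The same limma fit was run on called distal peaks summed by element name and on promoter peaks summed by gene, and the edgeR quasi-likelihood test on the repeat counts. p-values were adjusted by Benjamini-Hochberg, with calls at 0.05, and shares were compared by an exact permutation test over libraries. The script was tested on simulated data. Sequences came from hg38 and intron hosts from RefSeq (GRCh38.p14); the windows of the remaining group leaders are not reported here. Peaks of the table had no overlap with each other, and 99 tested peaks on sequences missing from the genome used, none of them in these elements, had no window.

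Named peaks have a mean of at least 10 and no overlap between groups: the 8 largest rises, the 8 largest falls, the 4 highest means, which need not meet those conditions, and the largest rise in each of 8 groups; named element names are the 10 with the smallest p among those with 5 or more tested peaks. From each gene list up to 3 genes with the smallest p were named. ATRX, the stretch on chromosome 20, the LTR18B and HERVL18-int neighbours, further element names and the repeat-table subfamilies were named after their values were seen. The members, lists and rules were chosen with earlier results of these data known.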

Additional observations from a re-analysis of the deposited data

How the results depend on the processing

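The direction and call of all 14 named rises, and of the 10 named element names, held under every alternative in which they were tested (peaks not called in all 4 libraries have no value in that fit); each of the 8 named falls lost its call under at least 1. The fall count of 20 became 5 with deposited values, 4 with column totals, 2 with ribosomal protein promoters, 50 with no filter on the mean, 5 for peaks called in all 4 libraries, 13 beyond 10000 bases and 11 with the DESeq2 test, and 8 to 18 with 1 library left out. The rise count of 313 became 495 with no filter and 172 for peaks called in all 4 libraries, as 1045 and 253 peaks were then tested, and 251 to 302 with 1 library left out. Names called lower numbered 0 with deposited values, column totals, ribosomal protein promoters and the DESeq2 test, 3 with no filter, 2 with all merged peaks and 0 to 1 with 1 library left out (96 to 104 higher). Signs turned with deposited values at LTR41 near GET4 (0.037) and MLT1L near MSL3 (0.044), with column totals at MLT1E2 near PTPRO (0.0096), LTR41 (0.11) and MLT1L (0.12), and with ribosomal protein promoters at LTR16E2 near POP1 (0.20), MLT1J near DEPTOR (0.26), MER54A near SRPX (0.32), MLT1E2 (0.34), LTR41 (0.45) and MLT1L (0.46). With 1 library left out, the lone library of its group is assumed to vary like the other group. The repeat-table counts ran from 41 to 65 higher and 61 to 77 lower with 1 library left out. Promoter counts under scalings added after seeing the data were, for silencing genes, 2 higher with deposited values and 7 higher and 2 lower with ribosomal protein promoters, and for cleavage-stage genes 1 higher and 0 lower, then 2 higher and 0 lower. The share ratio of 2.31 was 1.58 against distal peaks, 1.41 against other distal repeats, 2.15 over all merged peaks, and 2.25 to 2.37 with 1 library left out.

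The replicate numbers only name libraries: deviations of same-numbered libraries correlated at -0.02 over 34154 peaks, and a fit with the replicate number as a block called 312 peaks higher and 19 lower, and changed no other call by over 1.5 times. Depth limits the 1783 peaks called in no library, whose mean over the libraries was 2 tags at the median, and with 2 libraries per group no permutation p can go below 0.33.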
